A study of Mus musculus with 27 samples.

Results

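Galectins, S100 proteins and annexins, with the vimentin gene Vim and the gene Ahnak, are a set of 10 of the 35275 genes measured in CD8 T cells that carried different amounts of let-7 microRNA. The set holds 3 galectin genes (Lgals1, Lgals3, Lgals9), 3 S100 genes (S100a4, S100a6, S100a10), 2 annexin genes (Anxa1, Anxa2), Vim and Ahnak, taken by symbol. The set was selected on a measured value, the high level of Lgals3 in lin28Tg cytotoxic T lymphocytes (CTLs) on day 5, so the day 5 values of lin28Tg libraries are given as a description, without a test. All 10 genes passed the filter on low values in every comparison.

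CD8 T cells of 3 mouse genotypes were sequenced at 3 stages, with 3 libraries in each of the 9 groups and 27 in all. Every mouse carried P14, a transgenic T cell receptor specific for a peptide of lymphocytic choriomeningitis virus. The genotypes are labelled WT P14+, Lin28bTg P14+ and Let-7Tg P14+, and are called WT, lin28Tg and let-7Tg here. Lin28b is an RNA-binding protein that blocks the maturation of let-7, and let-7Tg mice carry a doxycycline-inducible let-7g transgene at the Col1a1 locus. The study's methods place the P14+ lin28Tg and let-7Tg lines on a Rag2-/- background. For a reporter cross they name P14+ WT mice together with these lines on that background. The promoter of the Lin28b transgene is not given in the sources used here. Mice of both sexes were 6 to 10 weeks old in the in vitro work and, controls included, drank doxycycline for 4 days beforehand unless stated otherwise. Naive cells were untreated. Activated cells had 12 h of anti-CD3 (2 µg/mL) and anti-CD28 (5 µg/mL), and day 5 CTLs had irradiated splenocytes with anti-CD3 (2 µg/mL) and, from 48 h, IL-2 (100 U/mL), both with doxycycline (2 µg/mL) in the medium. The labels give lymph nodes as the tissue, the protocol adds spleens, and how the T cells were purified before lysis is not given in the sources used here.

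Galectins are lectins that bind β-galactoside sugars on glycoproteins: secreted galectin-1 can trigger death of activated T cells, galectin-3 can cross-link glycoproteins into surface lattices, and galectin-9 is a ligand of the inhibitory receptor Tim-3. S100 proteins are small calcium-binding proteins and annexins are calcium-dependent membrane-binding proteins. S100a10 forms a complex with annexin A2, to which the very large protein AHNAK binds. Vimentin is the intermediate filament protein of leukocytes, and in CD8 T cells several genes of the set are widely used as markers of antigen-experienced against naive cells.

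Mature let-7 sequences are shown because the genotypes differ in this microRNA. Each is printed 5′ to 3′ from RefSeq (GRCm38.p6) with the seed, bases 2 to 8, in capitals.
let-7g: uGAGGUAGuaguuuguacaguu
let-7a: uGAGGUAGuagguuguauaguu
let-7d: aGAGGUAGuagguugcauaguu
let-7g, the microRNA of the transgene, is encoded at chr9:106178846-106178867 on the plus strand. All 8 mature let-7 sequences looked up, let-7a to let-7g and let-7i, hold the same seed GAGGUAG. Its perfect matches CTACCTC and TACCTCA were searched for on the sense strand of each gene's 3′ UTR, taken from its coding transcript of greatest length. They were found in 0 of the 10 genes and in 2125 of 12668 genes with a 3′ UTR (16.8%). The 3′ UTRs of the 10 genes are short, with a median of 301 nt against 1105 nt over all genes, from 92 nt in S100a6 to 872 nt in Ahnak. The count says only that these letters are not in these windows.

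Promoters of Lgals3, S100a4 and Anxa1 are printed because these genes showed the highest day 5 values in lin28Tg relative to WT and because S100a4 and Anxa1 followed each other closely over the libraries. Each runs from 250 bases before the RefSeq transcription start to 50 after it (GRCm38.p6, gene strand), and capitals mark the TATA box TATAAA, the CCAAT box and the GC box GGGCGG on either strand.
Lgals3: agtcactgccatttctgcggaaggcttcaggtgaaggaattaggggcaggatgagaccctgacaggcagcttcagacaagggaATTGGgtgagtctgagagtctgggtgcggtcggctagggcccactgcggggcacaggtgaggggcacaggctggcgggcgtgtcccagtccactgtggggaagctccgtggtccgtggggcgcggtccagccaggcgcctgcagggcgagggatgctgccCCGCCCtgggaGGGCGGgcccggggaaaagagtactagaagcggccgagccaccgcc
S100a4: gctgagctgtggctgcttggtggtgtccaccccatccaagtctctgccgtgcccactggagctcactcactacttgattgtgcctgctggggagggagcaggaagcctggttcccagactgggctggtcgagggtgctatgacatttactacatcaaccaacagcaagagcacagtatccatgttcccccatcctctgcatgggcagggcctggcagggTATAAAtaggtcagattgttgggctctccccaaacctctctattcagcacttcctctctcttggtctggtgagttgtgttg
Anxa1: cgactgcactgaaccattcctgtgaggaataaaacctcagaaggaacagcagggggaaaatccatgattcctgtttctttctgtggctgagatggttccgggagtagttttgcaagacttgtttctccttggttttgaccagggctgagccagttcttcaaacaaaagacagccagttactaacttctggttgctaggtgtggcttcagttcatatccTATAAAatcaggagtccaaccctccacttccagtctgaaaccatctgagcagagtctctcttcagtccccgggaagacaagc
These windows lie at chr14:47373610-47373909 on the plus strand, chr3:90603520-90603819 on the plus strand and chr19:20390622-20390921 on the minus strand. The S100a4 and Anxa1 promoters hold a TATA box that begins 31 and 32 bases before the start, as do those of Vim at 32 and Anxa2 at 17 bases, whereas the Lgals3 promoter holds a CCAAT box and 2 GC boxes and no TATA box. The TATA box was present in 13.6% of 32851 RefSeq promoters of the same length, CCAAT in 37.4%, GGGCGG in 35.7% and the AP-1 motif TGANTCA in 7.81%. Among the 8 of the 10 genes with a promoter in the table, the AP-1 motif was found in Anxa2 alone, 95 bases before the start.

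Genes of the set lie on 7 chromosomes (GRCm38, GENCODE M21). S100a4 (chr3:90603771-90606045), S100a6 (chr3:90612882-90624181) and S100a10 (chr3:93555080-93564643) stand within 2.96 Mb on the plus strand of chromosome 3. Anxa1 (chr19:20373428-20390944, minus strand) and Ahnak (chr19:8989284-9076914, plus strand) share chromosome 19. Lgals3 is at chr14:47367751-47386160 on the plus strand. S100a4 overlaps the gene model Gm42674 on its own strand, Anxa1 overlaps 1500015L24Rik on the opposite strand, and Anxa2 overlaps Mir3109 and, on the opposite strand, Gm16144. Whether reads were counted by strand, and how reads in such overlaps were assigned, is not given in the sources used here. The overlaps could therefore alter the values of S100a4, Anxa1 and Anxa2.

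Libraries held 13862679 to 23590836 counted reads, and 12 h libraries 14102906 to 17149792. Lin28b was at 56.4 to 67.9 FPKM in naive lin28Tg libraries, at 9.94 to 12.6 at 12 h and at 14 to 22.4 on day 5, and had at most 5 reads in any other library. Col1a1, the gene at the let-7g transgene's locus, was at 9.06 FPKM or more in all 9 let-7Tg libraries and at most at 4.93 in the others. FPKM is the number of fragments per kilobase of gene, relative to library depth. The summed FPKM of 8 markers of CD8 T cells was 4368 to 5615 in naive, 1349 to 1639 in 12 h and 2836 to 3597 in day 5 libraries, and none of the 8 was at 0 in any group. Naive lin28Tg libraries stood apart in markers of other blood cells. The sum of 12 myeloid markers was 336, 1597 and 841 FPKM in their 3 libraries against 84.9 to 163 in WT and 67.1 to 147 in let-7Tg. Sums of 7 erythroid markers were 494 to 1995, 153 to 292 and 1.98 to 39.2 FPKM, and sums of 6 NK cell markers 123 to 432, 42.3 to 83.5 and 33.8 to 67.8 FPKM, in the same order. Within the 12 h stage, let-7Tg replicate 2 stood apart for Lgals3 and Vim.

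**Figure D1:**
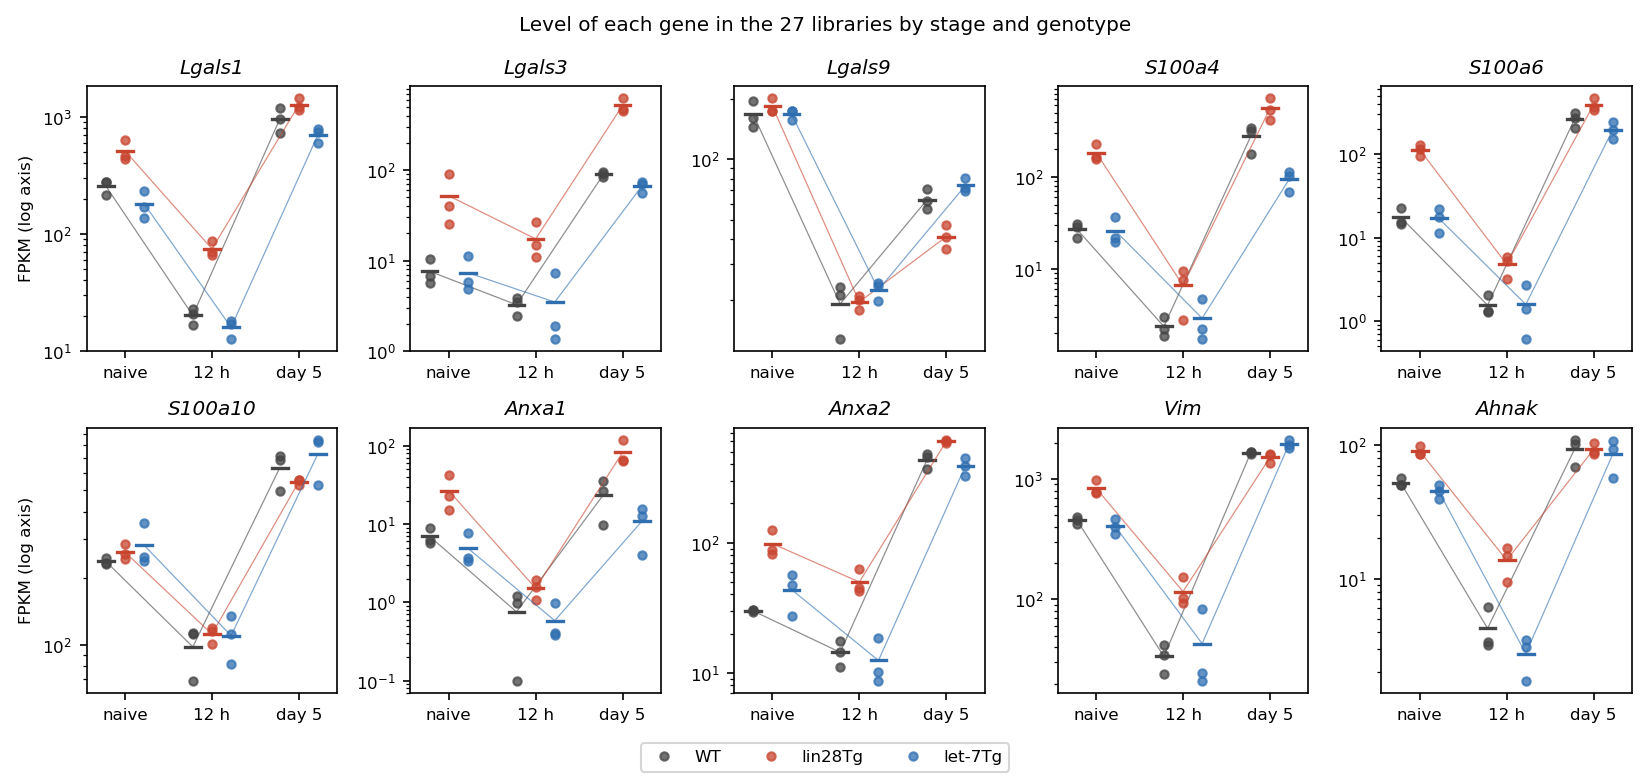
FPKM of the 10 genes (log axis) at the naive, 12 h and day 5 stages, with 1 point per library, a bar for the mean of 3 libraries and a line joining the means of a genotype. Lgals3 stood at 456 to 629 FPKM in day 5 lin28Tg libraries and at 55.3 to 95 in the other day 5 libraries, and 12 h levels were the lowest of the 3 stages in every panel.

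The level of Lgals3 (galectin-3) was 456, 629 and 479 FPKM in the day 5 lin28Tg libraries, 83.4, 95 and 91.7 in day 5 WT, and 69.8, 55.3 and 74.1 in day 5 let-7Tg. In naive cells it was 25.2, 91.2 and 40.1 FPKM in lin28Tg, 10.3, 5.72 and 6.82 in WT, and 11.4, 5.82 and 4.85 in let-7Tg. At 12 h it was 11, 14.7 and 26.4 FPKM in lin28Tg, 3.82, 3.48 and 2.43 in WT, and 1.34, 7.20 and 1.88 in let-7Tg. At each stage all lin28Tg libraries lay above all WT and all let-7Tg libraries. The groups ranked, by mean FPKM, as day 5 lin28Tg (521), day 5 WT (90.1), day 5 let-7Tg (66.4), naive lin28Tg (52.2), 12 h lin28Tg (17.4), naive WT (7.62), naive let-7Tg (7.34), 12 h let-7Tg (3.47) and 12 h WT (3.24). Neighbours in this order overlapped from day 5 let-7Tg down to 12 h lin28Tg and again from naive WT down to 12 h WT. Only day 5 lin28Tg lay above all groups ranked below it. Day 5 WT, from 83.4 FPKM, did not overlap its neighbour day 5 let-7Tg but was reached by naive lin28Tg, up to 91.2. In the same way 12 h lin28Tg, from 11 FPKM, did not overlap its neighbour naive WT but was reached by naive let-7Tg, up to 11.4. By mean FPKM, Lgals3 ranked 7830 among the 35275 genes in naive WT, 2430 in naive lin28Tg, 1353 in day 5 WT, 1863 in day 5 let-7Tg and 185 in day 5 lin28Tg.

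Naive lin28Tg cells had 8 of the 10 genes above their WT level and none below it (limma with Benjamini-Hochberg adjustment over 13277 genes, adjusted p under 0.05). Of all genes tested 33.9% were called in this comparison. The median log2 difference of the 10 genes was 1.28, against -0.03 over all genes tested. Differences are on the scale of log2(scaled FPKM + 0.5), with the standard error of the model.

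The largest naive differences from WT were in 2 S100 genes and in Lgals3. S100a4, which binds non-muscle myosin and marks effector and memory T cells, was at 158, 230 and 165 FPKM in naive lin28Tg and at 30.6, 21.4 and 28.8 in naive WT, with no overlap. Its log2 difference was 2.70 ± 0.24 (SE, n = 3 per group, limma adjusted p = 6.99e-05). S100a6, also called calcyclin, was at 116, 127 and 95.4 FPKM against 22.7, 15.6 and 14.4, again with no overlap, and its difference was 2.62 ± 0.24 (limma adjusted p = 0.000101). For Lgals3 the difference was 2.49 ± 0.44 (limma adjusted p = 0.00286). S100a10, the annexin A2 partner, was at 244, 287 and 257 FPKM in lin28Tg and at 231, 248 and 236 in WT, with overlapping groups and a log2 difference of 0.09 (95% interval -0.22 to 0.40). Of the 3 S100 genes, 2 were thus called and the most abundant one in naive cells was not.

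Both annexin genes were higher in naive lin28Tg cells than in WT. Anxa2, whose product binds phospholipids and F-actin, was at 81.3, 125 and 87.8 FPKM against 29.3, 30.2 and 30.1 in WT. Every lin28Tg library stood above every WT library, by a log2 difference of 1.62 ± 0.24 (limma adjusted p = 0.00134). Anxa1, whose product is a ligand of formyl peptide receptors, was at 15.3, 41.9 and 22.8 FPKM against 8.97, 5.77 and 6.20, a difference of 1.72 ± 0.37 (limma adjusted p = 0.0066). Its 3 lin28Tg libraries spread over 2.74-fold and did not reach down to WT.

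Lgals1, the gene of galectin-1, was at 464, 633 and 433 FPKM in naive lin28Tg and at 215, 275 and 276 in WT, a log2 difference of 0.94 ± 0.20 (limma adjusted p = 0.00715). Vim was at 760, 973 and 774 FPKM against 454, 423 and 484, and differed by 0.83 ± 0.13 (limma adjusted p = 0.00167). Ahnak, the scaffold of the annexin A2 complex, was at 85.4, 85.4 and 98.6 FPKM against 50.1, 49.9 and 56.7, and differed by 0.73 ± 0.10 (limma adjusted p = 0.00104). Groups did not overlap in these 3 genes, which makes 8 of the 10. Of all genes tested 49% had groups that did not overlap in this comparison, 28.2% with lin28Tg higher. Lgals9, the Tim-3 ligand, was at 201, 174 and 174 FPKM in lin28Tg and at 195, 160 and 145 in WT, with overlap and a difference of 0.09 (95% interval -0.17 to 0.35). All 8 calls held with any single library left out.

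**Figure D2:**
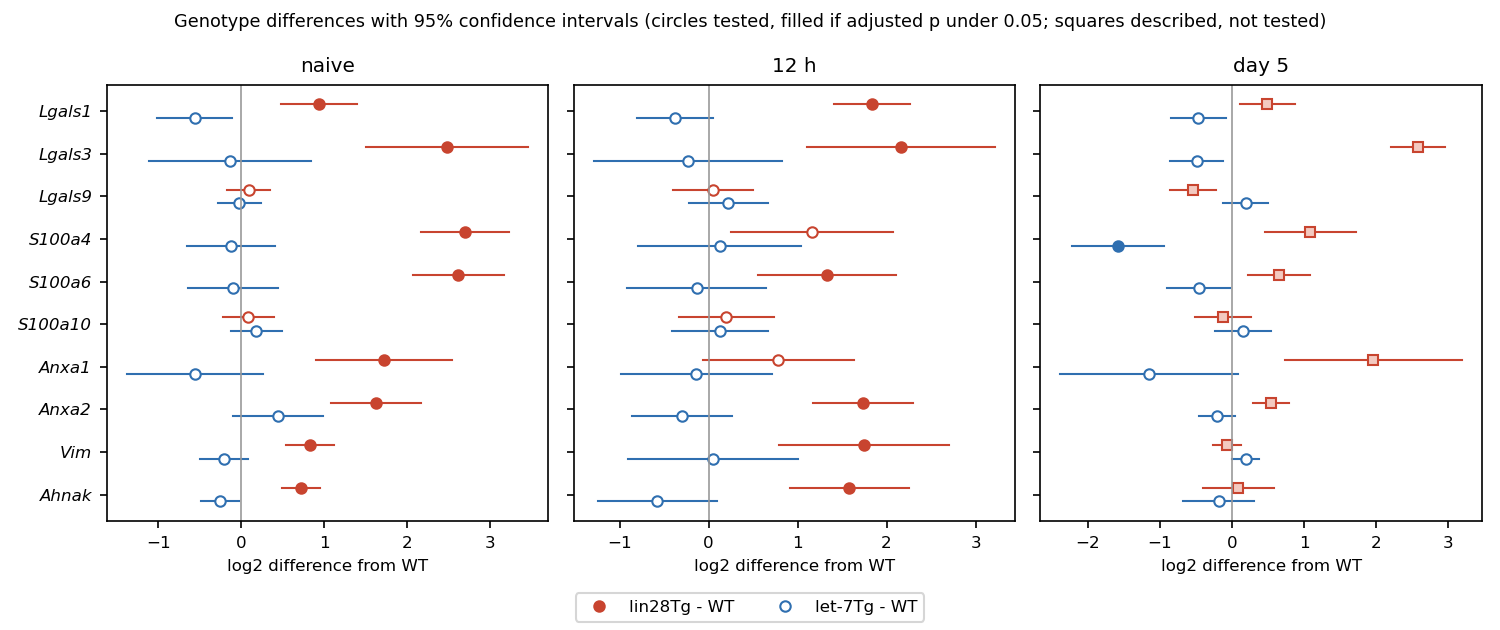
Log2 difference from WT of the 10 genes in lin28Tg and let-7Tg at each stage, with 95% confidence intervals. In lin28Tg 8 genes were called in naive cells and 6 at 12 h (filled circles), the only filled let-7Tg point is S100a4 on day 5, and squares mark the day 5 lin28Tg values, which were not tested.

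Markers of other cells moved with these naive differences. All 11 myeloid markers in the fit were called higher in naive lin28Tg than in WT, with Lyz2 at 96.2 to 491 FPKM against 19.2 to 32.5. Naive lin28Tg replicate 2 was the highest of its group for the myeloid sum and for 8 of the 10 genes, all except Lgals9 and Ahnak. Between the lowest and the highest naive lin28Tg library the myeloid sum spread over 4.75-fold, Lgals3 over 3.63-fold and Anxa1 over 2.74-fold. S100a4 spread over 1.45-fold, S100a6 over 1.34-fold, Vim over 1.28-fold and Ahnak over 1.16-fold. The ratio of the lin28Tg to the WT mean was 7.81 for the myeloid sum and 6.85, 3.83, 6.85, 6.43, 1.84 and 1.72 for these 6 genes. The lowest naive lin28Tg library stood 2.07-fold over the highest WT library for the myeloid sum. This ratio was 5.17 for S100a4, 4.21 for S100a6, 2.70 for Anxa2 and 2.44 for Lgals3. It was 1.71 for Anxa1, 1.57 for Lgals1 and for Vim, and 1.51 for Ahnak. Markers of CD8 T cells were called lower in naive lin28Tg than in WT for 3 of 8. Of the other lists, 5 of 6 NK, 4 of 5 erythroid, 5 of 7 stromal, 2 of 3 B cell and 2 of 4 CD4 T cell markers in the fit were called higher, and 1 stromal and 2 CD4 T cell markers lower. Summed B cell markers stood at 30.4 to 40.7 FPKM against 18.9 to 21.7 in WT, CD4 T cell markers at 24.1 to 83.5 against 12.9 to 23.7, and stromal markers at 42.6 to 58.1 against 63.8 to 64.9. In bulk RNA fewer cells of a type and less RNA per cell cannot be told apart, and the part of RNA from these other cells in the 8 calls was not tested.

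**Figure D3:**
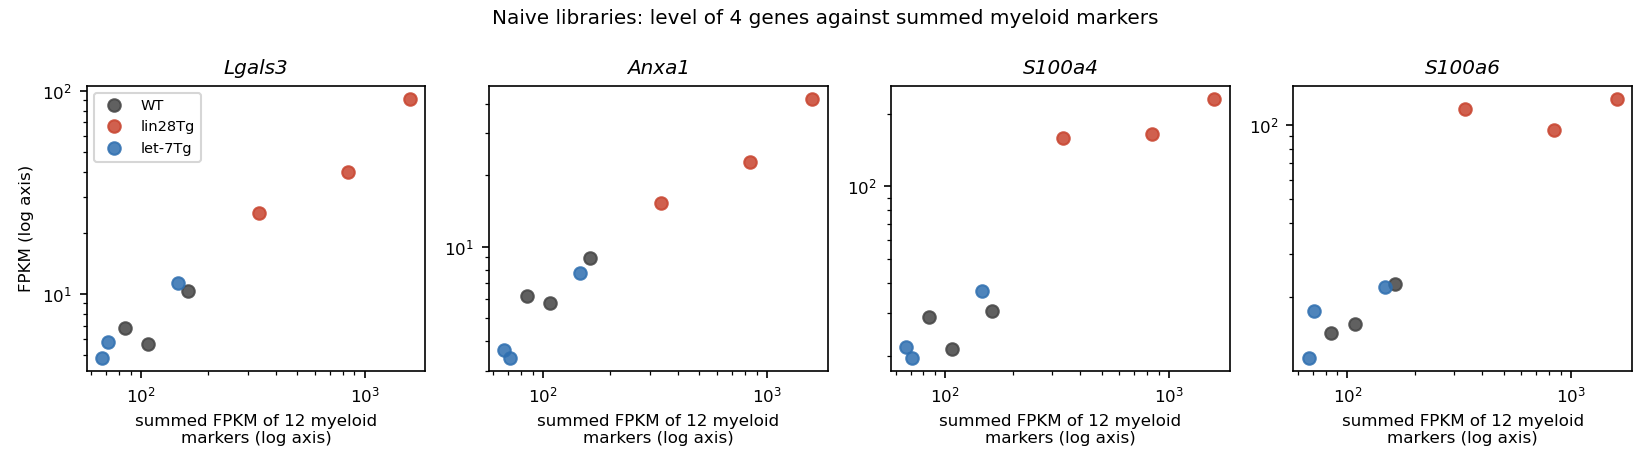
FPKM of Lgals3, Anxa1, S100a4 and S100a6 in the 9 naive libraries against the summed FPKM of 12 myeloid markers, both on log axes. Within lin28Tg the libraries ranked alike for the myeloid sum, Lgals3, Anxa1 and S100a4, while S100a6 was at 95.4 to 127 FPKM in lin28Tg libraries whose sums ran from 336 to 1597.

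Between naive let-7Tg and WT none of the 10 genes was called by limma, and 0.738% of all genes were. Unadjusted p was under 0.05 for 2 of the 10. Lgals1 was at 170, 233 and 138 FPKM in let-7Tg, with a log2 difference from WT of -0.56 ± 0.20 (limma adjusted p = 0.248). Ahnak was at 50.5, 45.1 and 39.3 FPKM, with a difference of -0.25 ± 0.10 (limma adjusted p = 0.296). Lgals3 differed by -0.13 with a 95% interval from -1.11 to 0.84, a range that holds differences of either sign. The groups overlapped for all 10 genes, whereas 24% of all genes tested had groups that did not overlap.

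Set against let-7Tg in place of WT, with the same lin28Tg libraries, 8 genes were higher in naive lin28Tg and 44.3% of all genes were called. Log2 differences were 2.82 for S100a4, 2.72 for S100a6, 2.62 for Lgals3, 2.28 for Anxa1, 1.5 for Lgals1, 1.19 for Anxa2, 1.04 for Vim and 0.98 for Ahnak, with limma adjusted p values from 3.64e-05 for S100a4 to 0.00363 for Anxa2. Lgals9 (0.11) and S100a10 (-0.10) were not called. Here too markers moved: 11 of 11 myeloid, 6 of 6 NK, 5 of 5 erythroid and 5 of 7 stromal markers were called higher in lin28Tg. Called lower were 4 of 8 CD8 T cell markers and 2 stromal markers. Their part in the 8 calls was not tested.

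At 12 h the set stood lower than in naive cells in every genotype. In WT 9 of the 10 genes fell (limma over 27 libraries, 14453 genes), where 70.9% of all genes were called and the median of the 10 genes was -2.88. Vim fell from a mean of 453 to 33.6 FPKM, 13.5-fold, and Lgals1 from 255 to 20.1 FPKM, 12.7-fold. Means of Ahnak were 12.3-fold lower at 12 h, of S100a4 11.4-fold, of S100a6 11.3-fold, of Anxa1 9.22-fold and of Lgals9 8.76-fold. The 12 h WT libraries held 13 to 22 reads of S100a4, 13 to 23 of S100a6 and 1 to 13 of Anxa1, so these 3 ratios rest on few reads. The falls of S100a10 and Anxa2 were 2.43-fold and 2.08-fold. Lgals3 differed by -0.85 ± 0.44 on the log2 scale (limma adjusted p = 0.0855) and was not called. The sum of the CD8 T cell markers was lower at 12 h too, and stage, culture and the table of each stage cannot be told apart.

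In let-7Tg 9 genes fell between the naive stage and 12 h, beside 69.3% of all genes called, and Lgals3 was again the gene not called (limma adjusted p = 0.0572). All 10 fell in lin28Tg, beside 73.7% of all genes called. There 11 of 12 myeloid markers fell too, with their sum going from 336 to 1597 down to 22.7 to 49.1 FPKM, as did 5 of 6 NK, 5 of 6 erythroid, 7 of 7 stromal and 8 of 8 CD8 T cell markers. Myeloid markers fell for 9 of 12 in WT and 10 of 12 in let-7Tg, and the part of any of these in the falls of the set was not tested. In lin28Tg S100a4 fell 28-fold, from a mean of 184 to 6.59 FPKM, S100a6 23.5-fold, Anxa1 17.6-fold, Lgals1 6.87-fold and Lgals3 3.00-fold. At 12 h the first 3 of these had 21 to 66, 39 to 72 and 12 to 21 reads per lin28Tg library. The lin28Tg calls of Lgals3 (limma adjusted p = 0.0206) and Anxa2 (0.0146) were lost without naive replicate 2 or 12 h replicate 1, that of Lgals3 also without 12 h replicate 2 and that of Anxa2 without 12 h replicate 3.

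At 12 h lin28Tg exceeded WT in 6 of the 10 genes and was below it in none, where 8.33% of the 12239 genes tested were called. The median log2 difference was 1.45 for the 10 genes and -0.02 over all genes.

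Lgals1 and Anxa2 kept their 12 h call whichever library was left out. Lgals1 was at 65.9, 87.2 and 69.8 FPKM in lin28Tg and at 20.8, 16.6 and 22.9 in WT, a log2 difference of 1.84 ± 0.19 (limma adjusted p = 0.00074). Anxa2 was at 44.7, 62.5 and 42.3 FPKM against 14.5, 17.5 and 11.2, a difference of 1.74 ± 0.25 (limma adjusted p = 0.00336). In both genes the lowest lin28Tg library was well above the highest WT library.

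The other 4 calls at 12 h were each lost with some single library left out. Lgals3, at the levels given above, differed by 2.16 ± 0.47 (limma adjusted p = 0.0227), a call lost in 4 of the 9 fits with 1 library left out (without WT replicate 1 or 3 or lin28Tg replicate 2 or 3). Ahnak was at 9.53, 14.9 and 16.9 FPKM in lin28Tg and at 6.20, 3.36 and 3.21 in WT, a difference of 1.58 ± 0.30 (limma adjusted p = 0.0119) lost without lin28Tg replicate 2 or 3. Vim was at 92.9, 153 and 102 FPKM against 34.8, 41.9 and 24.1, a difference of 1.75 ± 0.43 (limma adjusted p = 0.0345) lost without any 1 of the 6 libraries compared. S100a6 was at 5.30, 5.91 and 3.16 FPKM against 1.28, 1.33 and 2.04, a difference of 1.33 ± 0.35 (limma adjusted p = 0.0457) lost in 7 of the 9 fits, with any of those 6 libraries or let-7Tg replicate 1 left out. The groups did not overlap in any of the 4 genes. Of all genes tested 34.8% had groups that did not overlap in this comparison, 19.6% with lin28Tg higher. Without lin28Tg replicate 2 the count of 6 fell to 2 genes, without WT replicate 1 or 3 or lin28Tg replicate 3 to 3 (the last with S100a4 newly called), and without WT replicate 2 or lin28Tg replicate 1 to 4.

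Of the 4 genes not called at 12 h, S100a4 was at 9.43, 7.58 and 2.76 FPKM in lin28Tg and at 2.24, 2.96 and 1.87 in WT, with overlap and a difference of 1.16 ± 0.41 (limma adjusted p = 0.116), and it was called without lin28Tg replicate 3 (0.0249). Anxa1 rested on 1 to 21 reads per library in lin28Tg and WT, with a difference of 0.79 ± 0.38 (limma adjusted p = 0.24, 95% interval -0.06 to 1.63). S100a10 differed by 0.20 (95% interval -0.34 to 0.74) and Lgals9 by 0.05 (-0.40 to 0.50). Myeloid markers were called higher in lin28Tg for 4 of the 10 in the fit, and their sum was 41.6, 49.1 and 22.7 FPKM against 14.4 to 26.5 in WT. Of 8 CD8 T cell markers 2 were called lower and 1 higher, and 1 of 2 B cell markers was called higher, beside 8.33% of all genes. Erythroid sums were 83.4 to 693 against 26.1 to 104 FPKM, none of the 5 erythroid markers in the fit was called, and NK sums were 13.8 to 35.5 against 9.13 to 15.2 FPKM with none of 6 called, and the part of these cells in the 12 h differences was not tested. Unadjusted limma p was under 0.05 for 4 of the erythroid and 3 of the NK markers.

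No gene of the set was called between let-7Tg and WT at 12 h, where 2.94% of all genes were, and none had an unadjusted limma p under 0.05. That share was 0.041% without WT replicate 3 and 5.41% without let-7Tg replicate 1. In let-7Tg replicate 2 Vim was at 83.3 FPKM and Lgals3 at 7.20, against 24.6 and 20.9 and against 1.34 and 1.88 in the other 2 libraries. With let-7Tg as the reference, and the same lin28Tg libraries, 6 genes were higher in lin28Tg at 12 h and 30.1% of all genes were called. Their log2 differences were 2.40 for Lgals3, 2.22 for Lgals1, 2.16 for Ahnak, 2.04 for Anxa2, 1.70 for Vim and 1.46 for S100a6, with limma adjusted p values from 6.57e-05 for Lgals1 to 0.0154 for Vim. S100a4 differed by 1.04 (limma adjusted p = 0.0818) and Anxa1 by 0.92 (0.0943). The call of S100a6 was lost without lin28Tg replicate 2, and that of Vim without lin28Tg replicate 2 or let-7Tg replicate 1 or 3, so that 4 genes were called without lin28Tg replicate 2. S100a4 was called without lin28Tg replicate 3 or let-7Tg replicate 2, and Anxa1 without WT replicate 3. Markers moved with this comparison: 8 of 10 myeloid, 5 of 5 erythroid and 2 of 6 NK markers were called higher in lin28Tg, and 4 of 8 CD8 T cell markers lower and 1 higher. Their part in the 6 calls was not tested.

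From 12 h to day 5 all 10 genes rose in WT, beside 67.5% of all genes called. S100a6 rose 168-fold, from a mean of 1.55 to 261 FPKM, and S100a4 118-fold, from 2.35 to 278 FPKM. Their fitted log2 differences were 6.87 and 6.44. Few 12 h reads lie behind these ratios, 13 to 23 per library for S100a6 and 13 to 22 for S100a4, and Anxa1 had 1 to 13. Vim rose 49.1-fold to a mean of 1650.1 FPKM and Lgals1 47.5-fold to 955 FPKM. Rises of 31.3-fold, 30.2-fold, 27.8-fold and 21.8-fold were found in Anxa1, Anxa2, Lgals3 and Ahnak. The smallest ones were those of S100a10, by 6.46-fold, and Lgals9, by 3.30-fold. By mean FPKM Vim ranked 63 among all genes of day 5 WT, Lgals1 116 and S100a10 155. All 10 rose in let-7Tg too, beside 67.2% of all genes called, with S100a6 at 124-fold and S100a4 at 32.6-fold. The 12 h let-7Tg libraries held 7 to 30 reads of S100a6 and 12 to 32 of S100a4.

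Day 5 CTLs stood above naive cells in 9 of the 10 genes in WT and in 8 in let-7Tg, and Lgals9 stood below in both. Of all genes 65% were called in WT and 62.2% in let-7Tg. In WT the rise over naive cells was 14.9-fold for S100a6, 14.6-fold for Anxa2, 11.8-fold for Lgals3, 10.3-fold for S100a4, 3.74-fold for Lgals1, 3.64-fold for Vim, 3.40-fold for Anxa1, 2.65-fold for S100a10 and 1.78-fold for Ahnak. Lgals9 was at 195, 160 and 145 FPKM in naive and at 61.6, 56.2 and 70.9 in day 5 WT, with no overlap and a log2 difference of -1.28 ± 0.17 (limma adjusted p = 7.19e-07). Groups did not overlap for 69.4% of all genes tested between these WT stages. In let-7Tg the gene not called was Anxa1, at 7.73, 3.39 and 3.66 FPKM in naive and 12.9, 15.5 and 4.04 in day 5 cells (limma adjusted p = 0.0668).

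The lin28Tg stages are given without a test because they share the libraries that chose the set. From 12 h to day 5 means were 84.5-fold higher for S100a4, 81.5-fold for S100a6, 54.3-fold for Anxa1 and 30.0-fold for Lgals3, and 2.11-fold for Lgals9. The 12 h lin28Tg libraries held 21 to 66 reads of S100a4, 39 to 72 of S100a6 and 12 to 21 of Anxa1. Relative to naive lin28Tg, day 5 means were 9.99-fold higher for Lgals3, 6.12-fold for Anxa2, 3.46-fold for S100a6, 3.08-fold for Anxa1 and 3.02-fold for S100a4, and the ratio was 1.03 for Ahnak. Lgals9 was 4.45-fold lower than in naive lin28Tg. Of all genes 66.4% and 68.1% were called in these 2 comparisons, from which nothing is read for the set.

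Whether genotype changed the response to stage was tested as an interaction in the fit of all 27 libraries, and no gene of the set was called by limma in any of 4 interactions. Between naive and 12 h, lin28Tg against WT, 7.88% of all genes were called and 5 of the 10 had an unadjusted p under 0.05. The interactions of S100a4 and S100a6 were -1.53 ± 0.50 and -1.28 ± 0.43 (limma adjusted p = 0.0658 and 0.0708). Those of Lgals1, Vim and Ahnak had the other sign, at 0.90 ± 0.31, 0.92 ± 0.42 and 0.86 ± 0.34 (limma adjusted p = 0.0788, 0.212 and 0.145). For Lgals3 it was -0.31 ± 0.62. For let-7Tg against WT 0.0761%, 1.44% and 0.464% of all genes were called between naive and 12 h, 12 h and day 5, and naive and day 5, and 1 of the 10 genes had an unadjusted p under 0.05 in each. The smallest was that of S100a4 between 12 h and day 5, at -1.70 ± 0.50 (limma adjusted p = 0.0997).

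Among day 5 CTLs, S100a4 was lower in let-7Tg than in WT and was the 1 gene of the set called, beside 0.944% of all genes. It was at 101, 113 and 68.1 FPKM in let-7Tg and at 316, 340 and 179 in WT, with no overlap, a 2.96-fold lower mean and a log2 difference of -1.58 ± 0.28 (limma adjusted p = 0.0416). Leaving out WT replicate 3 kept the call. It was lost when any other library was left out, lin28Tg libraries included, with adjusted p from 0.0511 to 0.18, and in the fit of the 6 libraries alone (0.0827). The share of all genes called was 0.0309% without WT replicate 1, 0.0308% without WT replicate 2 and 2.28% without WT replicate 3. Samples with the same number deviated together on day 5, and with the replicate number as a block 3 genes were called, S100a4 (limma adjusted p = 0.0135), S100a6 (-0.47, 0.0486) and Anxa1 (-1.15, 0.0485), beside 4.03% of all genes.

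Anxa1 was at 26.1, 35.3 and 9.66 FPKM in day 5 WT and at 12.9, 15.5 and 4.04 in let-7Tg. Replicate 3 was the lowest library of both groups, and within each replicate number let-7Tg was below WT. S100a6 was at 272, 308 and 204 FPKM in WT and 195, 239 and 153 in let-7Tg, with the same order within each number although the groups overlap. Lgals3 was at the levels given above, with no overlap, a difference of -0.49 ± 0.16 and an unadjusted limma p of 0.0144 that did not pass adjustment (0.226). Lgals1 differed by -0.47 ± 0.17 (limma adjusted p = 0.288). Vim stood at 2097, 1926 and 1816 FPKM in let-7Tg and at 1665, 1608 and 1677 in WT, without overlap, and its difference of 0.19 ± 0.08 was not called (limma adjusted p = 0.402). Of all genes tested 17.2% had groups that did not overlap in this comparison, and 3 of the 10 did.

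In day 5 lin28Tg CTLs, described without a test, 7 of the 10 genes had means on the log2 scale above WT and 3 below. Lgals3 had the largest difference, with a mean 5.79-fold that of WT, or 2.58 on the log2 scale. Anxa1 was at 65.1, 118 and 63.2 FPKM in lin28Tg, 3.47-fold the WT mean, and no lin28Tg library was as low as the highest WT library at 35.3. S100a4 was at 414, 722 and 535 FPKM, 2.00-fold the WT mean and also above every WT library. S100a6 (335, 468 and 368 FPKM) was 1.49-fold, Anxa2 (613, 584 and 606) 1.38-fold and Lgals1 (1133, 1442 and 1209) 1.32-fold the WT mean. Of these, S100a6 and Anxa2 lay above all WT libraries and Lgals1 overlapped them. Of all genes tested 24.2% had groups that did not overlap, 9.3% with lin28Tg higher and 14.9% with lin28Tg lower.

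Ahnak, Vim and S100a10 were near or below WT on day 5. Ahnak was at 104, 88.4 and 85.8 FPKM in lin28Tg and 109, 102 and 68.1 in WT. Vim was at 1565, 1592 and 1358 FPKM, 0.912 of the WT mean and below the 3 WT libraries. After the scaling of the fit, however, the groups overlapped and the log2 difference was -0.07. S100a10 was at 559, 559 and 526 FPKM and overlapped WT (718, 686 and 494). Lgals9 was at 40.9, 35.8 and 46.8 FPKM in lin28Tg and 61.6, 56.2 and 70.9 in WT, 1.53-fold lower with no overlap. The median of the 10 log2 differences was 0.52, against 0.01 over all 13030 genes tested, of which 4.17% were called, and nothing is read from that share for the set.

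Against let-7Tg on day 5 the lin28Tg means on the log2 scale differed by 3.11 for Anxa1, 3.07 for Lgals3, 2.67 for S100a4, 1.12 for S100a6, 0.96 for Lgals1, 0.75 for Anxa2, 0.27 for Ahnak, -0.26 for Vim, -0.27 for S100a10 and -0.73 for Lgals9, with a median of 0.85 beside 21.3% of all genes called. The 2 day 5 descriptions share the lin28Tg libraries. Lgals9 ran from 69.6 to 80.1 FPKM in let-7Tg, above all 3 lin28Tg libraries.

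Of the 12 myeloid markers, 8 were at or below 0.272 FPKM in every day 5 lin28Tg library and 4 were higher than that. Lyz2 was at most 0.0375 FPKM in lin28Tg, Csf1r at most 0.021 and Adgre1 at most 0.0298, and C1qa, C1qb and Clec7a were at 0 in all 3 lin28Tg libraries. The sum of the 12 myeloid markers was nevertheless 35.1 to 113 FPKM in lin28Tg against 7.22 to 15.4 in WT, of which Fcer1g, a signaling adaptor that NK cells also express, gave 22.1 to 102 FPKM against 2.20 to 7.27. The NK marker sum was 65.9 to 164 FPKM in lin28Tg and 10.1 to 44.0 in WT, nearly all from Klrb1c (60.8 to 158 FPKM in lin28Tg), with Klra8 at 0 and Ncr1 at most at 0.0305. Cd68 was at 6.05 to 7.87 FPKM in lin28Tg against 3.54 to 5.14 in WT, Itgam at 1.14 to 3.56 against 0.183 to 0.72, and Tyrobp at 1.57 to 5.27 against 1.06 to 3.03. These 3 and Fcer1g were the 4 myeloid markers in the day 5 fit, all with a higher mean in lin28Tg. The part of this RNA in the day 5 values was not tested.

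Other galectin, S100 and annexin genes numbered 29 in the tables, of which 13 to 17 had levels high enough to test. In naive cells 8 of 15 were higher in lin28Tg than in WT and 1 was lower, beside 33.9% of all genes called, with a median of 0.63. Anxa3 was at 39.5 ± 8.61 FPKM in lin28Tg and 10.6 ± 3.05 in WT (SD, n = 3), a difference of 1.81 (limma adjusted p = 0.00213), and Anxa4 at 19.2 ± 6.08 and 4.94 ± 1.5, a difference of 1.80 (limma adjusted p = 0.00215). S100a9, a subunit of calprotectin that neutrophils and monocytes make in quantity, differed by 2.64 (limma adjusted p = 0.00518) and S100a1 by 1.74 (0.00379). All 11 myeloid markers in the fit were called higher in this comparison too, and the part of RNA from other cells was not tested. At 12 h 1 of 14 was higher in lin28Tg (8.33% of all genes called), Anxa6, by 0.50 (limma adjusted p = 0.0188), and 1 was higher in let-7Tg (2.94% of all genes called), S100a11, by 0.62 (limma adjusted p = 0.0297). None of 15 was called between naive let-7Tg and WT and none of 13 on day 5 (unadjusted limma p under 0.05 for 2 in each).

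Of 15 genes for galectin ligands and the enzymes that make or cap their sugars, 5 were higher and 4 lower in naive lin28Tg than in WT, beside 33.9% of all genes called. Cd44, a hyaluronan receptor bound by galectins, was at 26.5 ± 5.40 FPKM against 9.16 ± 2.85 (SD, n = 3), a difference of 1.46 (limma adjusted p = 0.00152). Cd7, a galectin-1 receptor, differed by 0.87 (limma adjusted p = 0.00175) and Havcr2, which encodes Tim-3, by 1.63 (0.0018). St3gal1, a sialyltransferase, was lower by 0.46 on the log2 scale, at 37.3 ± 1.84 against 49.9 ± 4.81 FPKM (limma adjusted p = 0.00215). The part of RNA from myeloid and other blood cells in these naive calls was not tested. At 12 h Cd44 was at 130 ± 11.6 FPKM in lin28Tg, 67.9 ± 6.62 in WT and 52.4 ± 1.55 in let-7Tg, higher than WT in lin28Tg (0.91, limma adjusted p = 0.000656) and lower in let-7Tg (-0.41, 0.0455). Lgals3bp, the galectin-3 binding protein gene, was higher in lin28Tg (0.59, limma adjusted p = 0.046) and lower in let-7Tg (-0.69, 0.0482) at 12 h, and lower in naive let-7Tg (-0.83, 0.0474). The 12 h let-7Tg calls of Cd44, Lgals3bp and S100a11 stand in the comparison with WT whose share of all genes called was 0.041% without WT replicate 3, and were not recomputed with single libraries left out. Ptprc, the CD45 gene, was lower in 12 h lin28Tg than in WT (-0.60, limma adjusted p = 0.0062). None of the 15 was called on day 5 between let-7Tg and WT (unadjusted limma p under 0.05 for 4).

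Partners and receptors of annexins and S100 proteins gave 4 calls among 9 genes tested in naive cells, all higher in lin28Tg than in WT (33.9% of all genes called), and none among 8 at 12 h (unadjusted limma p under 0.05 for 1). Myof, a membrane repair ferlin, differed by 1.69 (limma adjusted p = 0.0011), Pla2g4a, the cytosolic phospholipase A2, by 1.87 (0.00426), Plau, the urokinase gene, by 1.43 (0.00672) and Cacybp, the calcyclin-binding protein, by 0.41 (0.00991). Of 17 genes of filaments and the cell cortex tested, 4 were higher and 2 lower, a share near that of all genes. Lmnb1 (lamin B1) was at 68.4 ± 14.2 FPKM against 27.6 ± 0.752 (SD, n = 3), a difference of 1.22 (limma adjusted p = 8.88e-05), and the actin-capping gene Capg differed by 1.47 (0.00101). Plec (-0.53, limma adjusted p = 0.00464) and Ezr (-0.35, 0.00493), linkers of filaments and of the membrane to actin, were lower. The part of RNA from myeloid and other cells in the naive calls of both lists was not tested. At 12 h Lmna (2.04, limma adjusted p = 0.0277) and Capg (0.84, 0.0295) were higher in lin28Tg. Neither list had a call between let-7Tg and WT at any stage, and unadjusted limma p was under 0.05 for 1, 0 and 1 genes of the first and 1, 4 and 5 of the second list in naive, 12 h and day 5 cells.

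Over the 27 libraries 9 of the 10 genes had pairwise Pearson r of 0.749 (Lgals3 and Ahnak) or more, and Lgals9 at most 0.679 with any of them. Values are of log2(scaled FPKM + 0.5) and are a description, since libraries of a stage share depth and culture. Many genes outside the set were as close. Among 14452 genes the nearest one of the set ranked 2 for S100a4 and Anxa1, 104 for Anxa2, 213 for S100a10 and 2788 for Lgals9. S100a4 and S100a6 were the pair most alike (r = 0.977), followed by Lgals1 and S100a6 (0.968). The lowest value was that of Lgals3 and Lgals9 (0.114), and the gene of the set most like Lgals9 was Ahnak (0.679). Outside the set, the genes most like Lgals3 were Id2 (0.971), Jdp2 (0.959), Ptprj (0.955), Fgl2 (0.951) and Gm9581 (0.950). The gene most like each of the others was Mtch1 for Lgals1 (0.986), Camk1d for Lgals9 (0.982), Unc119 for S100a4 (0.978), Aqp9 for S100a6 (0.985), Clic1 for S100a10 (0.977), Mocos for Anxa1 (0.966), Cdca3 for Anxa2 (0.981), Plekhg3 for Vim (0.973) and Myo1f for Ahnak (0.981).

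**Figure D4:**
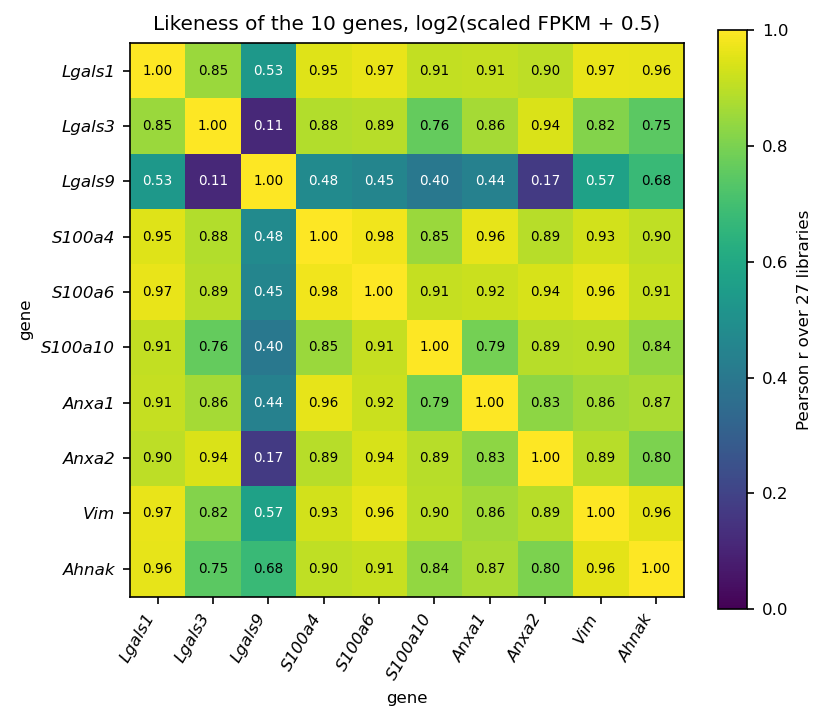
Pearson correlation of each pair of the 10 genes over 27 libraries, on log2(scaled FPKM + 0.5), as a color from 0 to 1 with the value printed. The row of Lgals9 is dark throughout, from 0.114 with Lgals3 to 0.679 with Ahnak.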

How the data were processed

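RNA was taken up in TRIzol, and library preparation and sequencing were done by a company. Each stage has 1 table. Per the labels, reads were aligned with TopHat2 2.0.9 and Bowtie2 2.0.6 to GRCm38/mm10 and counted with HTSeq 0.6.1. The FPKM values deposited by the authors relate those counts to gene length and to each library's total, with no further normalization across libraries, so a gene that takes a large share of reads lowers the others. The authors' group means of read counts, log2 fold changes, p-values and cluster numbers were not used. Since an FPKM step is 1 read, reads could be recovered for 100.0% of 462839 values (within 0.01 of a whole read), and served for depth, filter and floors only. No library was a duplicate of another in its group: the mean chi square per gene between replicates was 4.162 to 53.53 over 27 pairs. Libraries of different groups were not compared in this way.

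Log2(FPKM scaled by trimmed means of log ratios + 0.5) was fitted with limma 3.58.1 (R 4.3.3) with an intensity trend. Genotypes were compared within a stage (9 libraries), stages and interactions over all 27, on genes with 10 reads at median depth in 3 libraries and 15 reads in all. P-values were two-sided and adjusted by Benjamini-Hochberg over all genes tested at 0.05. They measure the spread between the 3 libraries of a group, pooled over all groups of a fit and moderated across genes. The study calls these libraries biological replicates. The fit was tested on simulated data. Means and SDs are of unscaled FPKM. Levels between genes depend on the authors' gene lengths.

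On day 5 same-numbered libraries of the 3 genotypes deviated together (r 0.244 to 0.716 for every pair, and 18 of 18 checks best with their own number), so the replicate block applies there. The pairing comes from this correlation, as the labels give numbers only. Positions are from GENCODE M21, which holds 34490 of the 35275 gene IDs. Python 3.11.15 with pandas 2.3.3 and matplotlib 3.10.9 did the rest.

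The 10 genes and all lists were chosen with earlier results of these data known. Named are the 10 genes, Lin28b and Col1a1, up to 4 called genes per list and genotype comparison by adjusted p, the 5 genes most like Lgals3 and 1 for each other gene, and markers where their list moved with a result. Alternatives were other scalings, pseudocounts of 0.1 and 1, no filter, each library left out, the replicate block and the 6 libraries compared alone.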

Additional observations from a re-analysis of the deposited data

Results flagged for a closer look

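On the deposited FPKM, Vim in lin28Tg stood below both other genotypes on day 5 and above both in naive and 12 h cells, without overlap, and Lgals9 in lin28Tg stood below let-7Tg on day 5 and above it in naive cells. These changes of side were not tested, since day 5 lin28Tg libraries chose the set. Relative to WT, Vim was at -0.0709 (log2) on day 5 and at 0.83 in naive and 1.75 in 12 h cells. After the scaling of the fit its day 5 libraries overlapped, at 1578, 1695 and 1432 in lin28Tg and 1626, 1573 and 1734 in WT, so a reversal against WT is not shown. Relative to let-7Tg, Vim was at -0.26 on day 5 against 1.04 in naive and 1.70 in 12 h cells, and the day 5 groups stayed apart after scaling. Between lin28Tg and let-7Tg, groups did not overlap for 54% of all genes tested in naive cells, 46.3% at 12 h and 42.3% on day 5. Lgals9 relative to let-7Tg was at -0.73 on day 5 against 0.11 in naive cells, where limma did not call it (adjusted p = 0.451, interval -0.14 to 0.37) and the scaled libraries overlapped. Groups of 3 libraries were not searched for single outlying libraries.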

How the results depend on the processing

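No call of the 10 genes reversed under any alternative. Of 5069 values of single genes, 44 lost a call, 38 gained one and 4987 did neither. The 4987 include the untested day 5 values of lin28Tg against WT and against let-7Tg, which had no threshold to cross. Among the 4987, 101 values that were not called or not tested changed sign. Without the filter on low values 3 genes were called at 12 h between lin28Tg and WT (6 with it) and 0 on day 5 between let-7Tg and WT (1 with it), and the shares of all genes called in those comparisons were 3.78% and 0.25%. More genes were adjusted for then. The fit of 6 libraries also gave 0 for the latter. With a pseudocount of 1, 2 genes were called for the lin28Tg interaction between naive and 12 h. Without scaling, the day 5 median between lin28Tg and let-7Tg was 0.742, against 0.855, and the median of all genes between naive and 12 h shifted to -0.183 in WT, -0.184 in let-7Tg and -0.238 in lin28Tg, smaller than the falls of the called genes. The causes were not tested.

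With the replicate number as a block, 3 genes were called on day 5 between let-7Tg and WT. In naive and 12 h cells the numbers did not pair the samples (r down to -0.257, and 6 of 18 checks at each stage were best with their own number). The block there gave 4 calls for the lin28Tg interaction between naive and 12 h (Lgals1, S100a4, S100a6 and Vim) and 1 for the let-7Tg interaction between 12 h and day 5 (S100a4), and added S100a4 and Anxa1 at 12 h between lin28Tg and let-7Tg and Lgals3 in let-7Tg between naive and 12 h. It changed no other call.

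With 1 library left out, the share of all genes called between let-7Tg and WT ran from 0.106% to 0.991% in naive cells, from 0.041% to 5.41% at 12 h and from 0.0308% to 2.28% on day 5. Calls of the 10 genes in naive cells ranged from 8 to 8 (lin28Tg against WT), 0 to 0 (let-7Tg against WT) and 8 to 8 (lin28Tg against let-7Tg). At 12 h they ranged from 2 to 6, 0 to 0 and 4 to 7. On day 5 let-7Tg against WT gave 0 to 1, and the medians ran from 0.389 to 0.629 for lin28Tg against WT (lowest without WT replicate 3) and from 0.766 to 0.916 against let-7Tg. From naive to 12 h there were 9 to 10 calls in WT, 9 to 10 in let-7Tg and 8 to 10 in lin28Tg (8 without naive replicate 2). From 12 h to day 5 there were 10 to 10 in both WT and let-7Tg, and from naive to day 5 there were 10 to 10 and 9 to 10. The interactions gave 0 to 3 for lin28Tg (3 without let-7Tg 12 h replicate 2), and 0 to 0, 0 to 1 and 0 to 0 for let-7Tg.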
